A study of Mus musculus with 12 samples.

Results

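Stromal cells of colonic tumours were compared with stromal cells of the normal adult colon in 8 of the 12 RNA-seq libraries of this series, 4 tumour libraries against 4 normal adult libraries, chosen by their tissue labels. All mice were C57BL/6J, with no engineered allele named. The tumour mice were 12, 13, 14 and 14 weeks old and carried tumours induced by AOM (azoxymethane, which damages DNA) with DSS (dextran sodium sulfate, which inflames the mucosa). The normal adult mice were 8 weeks old with no treatment named, so tumour, treatment and age cannot be told apart. The other 4 libraries, from normal colon at postnatal day 14 (P14), entered the shared fit and are given for a few levels. Pieces of colon were digested with collagenase and dispase, and live cells lacking EPCAM, CD31, CD45 and TER119 were sorted. EPCAM marks epithelium, CD31 endothelium, CD45 leukocytes and TER119 the red cell lineage. The sort therefore defines stroma by what the cells lack, and any cell without the 4 proteins could be in it. In bulk libraries of this kind, fewer cells of a type and less RNA per cell cannot be told apart.

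The colonic stroma holds fibroblasts, which build the matrix, together with smooth muscle cells, pericytes around small vessels, and nerve-associated cells. Fibroblasts near the crypt base feed the epithelium with WNT ligands and BMP antagonists, those near the surface make BMP ligands, and Hedgehog proteins from the epithelium keep their receptors, Gli1 and other targets active in the stroma. In tumours and after injury, stromal cells are known for making chemokines, cytokines and matrix proteases.

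Depth, the total count of a library, was 15449444 to 28471598 for tumour and 26392364 to 29911817 for normal adult stroma. Tumour replicate 4 was the shallowest and had 9.14% of listed genes at 0, against 0.383% to 0.850% in the other 7 libraries. Tumour replicate 1 had 5.23% of its counts on mitochondrial genes, against 0.238% to 0.971% in the others. The design gives 2 males and 2 females per group, but Xist was high (491 to 1301 CPM) in each of the 4 tumour libraries, with at most 1 Y-linked count. Normal adult replicates 1 and 2 had Xist under 1 CPM with 16340 and 14857 Y-linked counts, and replicates 3 and 4 had Xist at 730.0 and 826 CPM. The tumour libraries thus do not match the design's sexes, and a comparison with a term for Xist is given for the counts it changes by over 1.5 times. Over the 500 genes that varied most, principal component 1 (67.0% of the variance) parted the groups. Pearson correlations of log2 CPM across genes were 0.969 to 0.985 within normal adult, 0.903 to 0.947 within tumour and 0.841 to 0.920 between the groups.

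CPM here is the gene's count scaled by its library total times the TMM factor. Per-library values are in the order of replicates 1 to 4, and ± gives the SD over n = 4 libraries beside a CPM and the SE beside a log2FC (log2 fold change, tumour over normal adult). The quasi-likelihood test of edgeR, run on 18727 genes, called 3545 (18.9%) with adjusted p below 0.05. Of these, 1993 (10.6% of tested genes) rose in tumour and 1552 (8.29%) fell. At least 2-fold changes were called in 1262 genes that rose and 1019 that fell, and at least 8-fold changes in 316 and 175. The values of 3060 called genes did not overlap between the groups. Over all 18727 tested genes, called or not, tumour values lay wholly above normal adult values in 2065 and wholly below in 2063. Many genes named below were picked for having no overlap, so their separation is no added evidence. The median log2FC of all tested genes was 0.00, a value that TMM scaling tends to set, and was -0.063 with library totals alone. With the Xist term, 1202 genes were higher and 955 lower. Leaving out normal adult replicate 3 gave 1328 and 975, and leaving out tumour replicates 1 and 4 together gave 1477 and 980. The counts below are read against these shares of 10.6% higher and 8.29% lower.

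**Figure D1:**
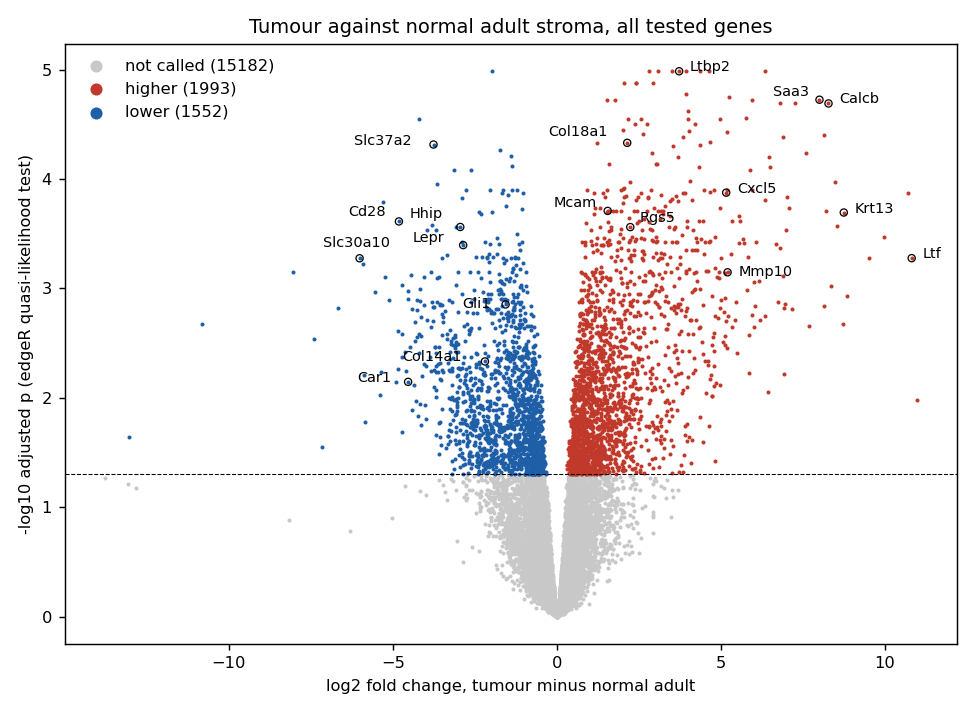
Log2 fold change of tumour over normal adult (horizontal) against -log10 of the adjusted p (vertical) for the 18727 tested genes, with the 0.05 threshold as a dashed line. Of these, 1993 lie above the line on the right and 1552 on the left, and 18 genes of the text are named.

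Fibroblast genes were abundant in both groups. Dcn, which encodes the collagen-binding proteoglycan decorin, stood at 4801, 3496, 3168 and 3607 CPM in normal adult and 2864, 4984, 921 and 1866 CPM in tumour libraries. Pdgfra, the receptor of most colonic fibroblasts, was at 1124, 833, 937 and 1162 CPM in normal adult and 604, 1247, 504 and 1089 CPM in tumour libraries (log2FC -0.24 ± 0.26, adjusted p = 0.563). The groups overlapped in both genes. Lists of markers of the cell types that the sort could still hold moved as well, and their part in the changes described further on was not tested. Of 18 tested squamous epithelial markers, 17 rose and 1 was not called, with a median log2FC of 5.10. Their summed CPM was 18.5, 263, 354 and 323 in normal adult and 6538, 6052, 5449 and 14477 in tumour libraries. Of 12 absorptive colonocyte markers, 10 fell and 2 were not called (median -3.55), with sums of 2071 to 4259 and 97.0 to 496 CPM. Of 18 general epithelial markers, 4 fell and 14 were not called, with sums of 8304 to 18151 and 2101 to 7404 CPM. Of 8 mesothelial markers, 3 fell, 1 rose and 4 were not called (median -1.15), with sums of 791 to 1683 and 250 to 685 CPM. Krt19 is in both the mesothelial and the general epithelial list. Epcam itself, whose protein was used to remove cells, was read at 704, 1589, 1434 and 764 CPM in normal adult and 479.6, 212, 767 and 395 CPM in tumour libraries.

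Macrophage and pan-leukocyte genes numbered 15, of which 8 fell and 7 were not called, with sums of 138 to 182 and 40.4 to 120.0 CPM. Of 7 tested neutrophil markers, 4 rose and 3 were not called. Their sums were 17.3, 33.2, 27.9 and 21.98 CPM in normal adult and 164, 982, 71.0 and 179.6 CPM in tumour, and 7 rose without tumour replicate 3 or without tumour replicate 4. Of 11 blood endothelial markers, 3 fell, Esam rose and 7 were not called (sums 266 to 393 and 74.0 to 121 CPM). DESeq2 called 8 lower, and Esam was lost without any of normal adult replicates 1 to 3 or tumour replicate 1 or 3. Of 7 lymphatic endothelial markers, 3 fell and 4 were not called (sums 223 to 381 and 157 to 345 CPM), with none lower without normal adult replicate 4 and 1 without normal adult replicate 1 or 3 or tumour replicate 1. Of 5 tested erythroid markers, 4 fell and 1 was not called, and 2 fell without normal adult replicate 3 or 4 (sums 32.0 to 47.1 and 1.93 to 13.1 CPM). Of 8 tested B and plasma cell markers, none passed edgeR's test, at an unadjusted p from 0.238 to 0.925, so 0 were under 0.05, and DESeq2 and limma voom called none either (sums 425 to 1514 and 192 to 1213 CPM). The leukocyte, neutrophil and plasma cell sums were all highest in tumour replicate 2 among the tumour libraries.

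**Figure D2:**
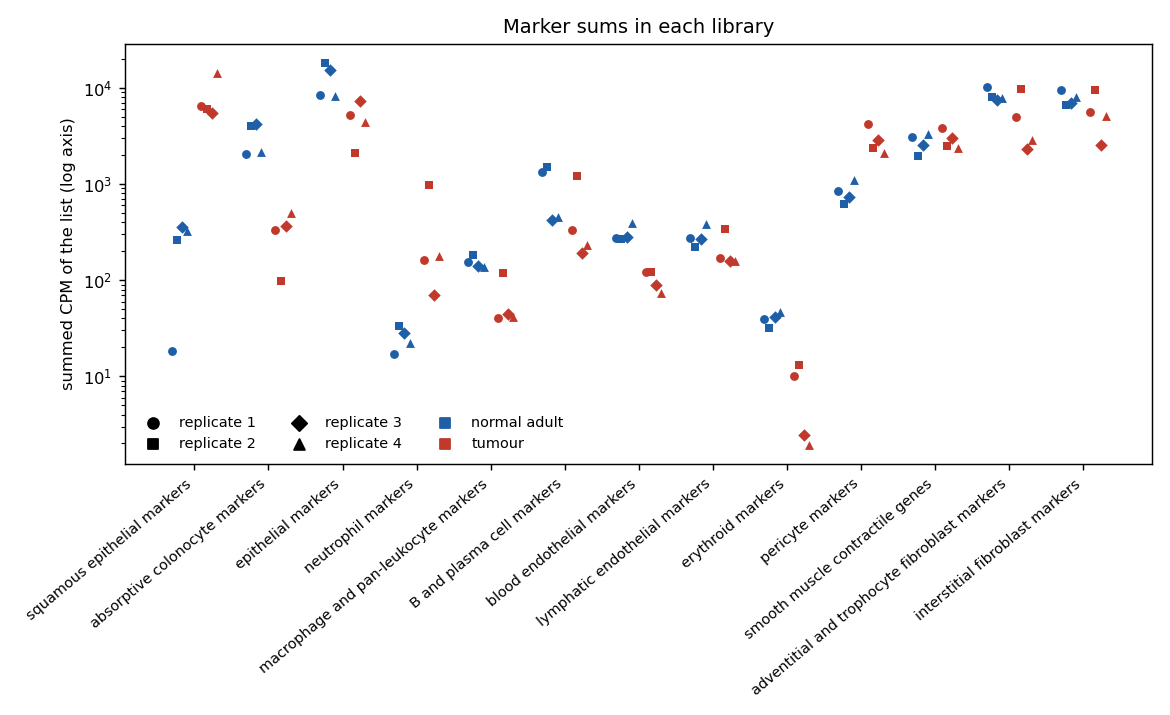
Summed CPM of 13 marker lists (log axis) in each library, normal adult in blue and tumour in red, 1 symbol shape per replicate number. The squamous sums of the 4 tumour libraries lie between 5449 and 14477 CPM, all above the normal adult libraries, and the absorptive colonocyte sums all lie below them.

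The squamous genes were also among the largest rises. Krt13, a keratin of stratified mucosa, was at 0.449, 1.33, 1.26 and 1.94 CPM in normal adult and 133, 71.2, 1016 and 912 CPM in tumour libraries (log2FC 8.74 ± 1.03, adjusted p = 0.000202). Krt6a, a keratin of activated and stratified epithelium, was at 0.160, 1.62, 2.20 and 1.602 CPM in normal adult and 133, 373, 577 and 548 CPM in tumour libraries (log2FC 8.20 ± 0.96, adjusted p = 0.000196). Every tumour library lay above every normal adult library in both. The basal-layer keratins Krt14 and Krt5, at 4.77, 139, 187 and 157 CPM in normal adult and 3452, 3750.3, 1936 and 8927 CPM in tumour libraries for Krt14, rose by 5.21 ± 0.88 and 4.90 ± 0.84 on the log2 scale (adjusted p = 0.00179 and 0.00188). Normal adult replicate 1 was low in Krt14 beside the other 3 normal adult libraries. The airway-trypsin-like proteases Tmprss11a, Tmprss11b, Tmprss11d and Tmprss11g rose by 6.79, 8.54, 9.51 and 10.69 (adjusted p from 2.04e-05 to 0.000532), with the highest values of the latter 3 in tumour replicate 3. Without that library Tmprss11b rose by 7.54, Tmprss11d by 8.50 and Tmprss11g by 9.26, and without normal adult replicate 4 the first 2 rose by 9.43 and 10.23. Reads of near-identical gene copies may be split between these proteases and between Krt6a and its neighbour Krt6b, so their single values are uncertain. Of the absorptive colonocyte genes, Slc37a2, a sugar phosphate exchanger, fell from 128 ± 34.8 to 9.44 ± 2.95 CPM (log2FC -3.76 ± 0.35, adjusted p = 4.84e-05), and Guca2a, the precursor of guanylin, from 270.0 ± 99.6 to 22.8 ± 14.5 CPM (log2FC -3.57 ± 0.71, adjusted p = 0.00477). Car1, a carbonic anhydrase of surface colonocytes, was at 534, 1081, 1283 and 622 CPM in normal adult and 18.7, 1.97, 29.1 and 103 CPM in tumour libraries (log2FC -4.53 ± 0.98, adjusted p = 0.00715, and -5.73 without tumour replicate 4, its highest tumour library).

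Pericyte genes rose together. All 10 members of the pericyte list were called higher in tumour, with a median log2FC of 1.55, against 10.6% called higher and a median of 0.00 over all tested genes. Between 8 and 10 were called when each library was left out in turn. Their summed CPM was 847, 626, 742 and 1109 in normal adult and 4227, 2368, 2874 and 2126 in tumour libraries, highest in tumour replicate 1. Blood endothelial sums were 273, 266, 283 and 393 and 121, 121, 89.1 and 74.0 CPM in the same libraries. Tek, an angiopoietin receptor whose values are given further on, was a large part of the normal adult sums. Of the 11 members, 3 fell, 1 rose and 7 were not called. Rgs5, a regulator of G-protein signalling that marks pericytes, was at 391, 264, 316 and 457 CPM in normal adult and 2604, 1479.8, 1546 and 1094 CPM in tumour libraries (fold 4.71, log2FC 2.24 ± 0.28, adjusted p = 0.000275). Mcam (CD146), a cell adhesion protein found on mural and endothelial cells (GRCm38, ENSMUSG00000032135, chromosome 9, 44134469 to 44142727 on the plus strand), was at 57.9, 50.04, 65.7 and 87.5 CPM in normal adult and 215, 169, 207 and 172 CPM in tumour libraries (fold 2.92, log2FC 1.55 ± 0.18, adjusted p = 0.000196). In both genes the lowest tumour library stood above the highest normal adult library.

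Pdgfrb, the receptor through which PDGF-B recruits pericytes, was at 161, 114, 119.9 and 192 CPM in normal adult and 376, 208, 327 and 276 CPM in tumour libraries (log2FC 1.02 ± 0.25, adjusted p = 0.0147). The groups did not overlap, but the adjusted p was 0.0508 without normal adult replicate 3 and 0.0928 without tumour replicates 1 and 4. Notch3, the Notch receptor of mural cells, rose from 51.4 ± 18.4 to 236 ± 119.7 CPM (log2FC 2.20 ± 0.39, adjusted p = 0.00229). Kcnj8 and Abcc9, the pore and the regulatory subunit of the potassium channel of pericytes, rose by 1.35 ± 0.24 (adjusted p = 0.00259) and 1.27 ± 0.25 (adjusted p = 0.00408). Ndufa4l2 and Higd1b, mitochondrial proteins abundant in pericytes, rose from low levels of 1.87 ± 0.561 and 1.36 ± 0.445 CPM by 3.15 ± 0.38 and 3.30 ± 0.38 (adjusted p = 0.000234 and 0.000175). Heyl, a Notch target, rose by 1.58 ± 0.31 (adjusted p = 0.00427), and Angpt2, a vessel-destabilizing ligand of the receptor Tek, by 1.05 ± 0.19 (adjusted p = 0.00279). Of 15 members of the smooth muscle list, Cald1, an actin-binding protein, rose (log2FC 0.84 ± 0.16, adjusted p = 0.00367), and 13 were not called, with a median of 0.08. The remaining member, Hhip, fell, and is not itself a contractile gene but a Hedgehog target that smooth muscle makes. Acta2, the smooth muscle actin, was at 441, 270.3, 364 and 480.5 CPM in normal adult and 674, 428, 526 and 382 CPM in tumour libraries (log2FC 0.37 ± 0.25, adjusted p = 0.336), and Myh11, the smooth muscle myosin, at 789 ± 206 and 725 ± 293 CPM (log2FC -0.12 ± 0.30, adjusted p = 0.815). The groups overlapped in both.

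**Figure D3:**
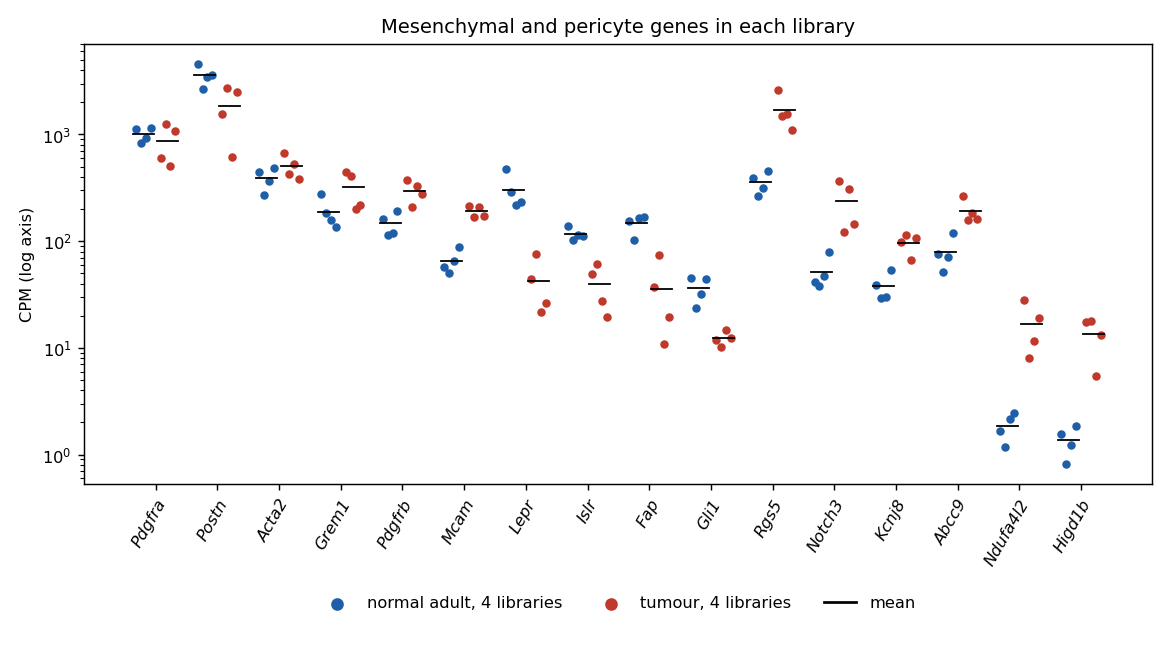
CPM (log axis) of 16 mesenchymal and pericyte genes in the 4 normal adult (blue) and 4 tumour (red) libraries, with the mean as a bar. Mcam, Rgs5, Ndufa4l2 and Higd1b are separated upwards in tumour, Lepr, Islr, Fap and Gli1 downwards, and Pdgfra, Postn, Acta2 and Grem1 overlap.

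Genes used to mark the colonic mesenchyme moved in both directions. Of 10, picked for what the study is about, Mcam and Pdgfrb rose, Lepr, Islr, Fap and Gli1 fell, and Grem1, Acta2, Pdgfra and Postn were not called. Their count is no independent evidence of direction. Lepr, the leptin receptor, which marks a perivascular stromal lineage, was at 473, 291, 220.2 and 235 CPM in normal adult and 43.8, 76.1, 21.9 and 26.4 CPM in tumour libraries (7.24-fold lower, log2FC -2.86 ± 0.38, adjusted p = 0.000402). Its highest tumour value was below its lowest normal adult value. Islr, the fibroblast protein meflin, was at 138, 102, 115 and 112 CPM in normal adult and 49.7, 61.8, 27.2 and 19.5 CPM in tumour libraries (log2FC -1.56 ± 0.30, adjusted p = 0.00369), again with no overlap. Fap, the protease fibroblast activation protein, was at 154, 102, 164 and 168 CPM in normal adult and 37.5, 73.7, 10.995 and 19.5 CPM in tumour libraries (log2FC -2.05 ± 0.49, adjusted p = 0.0119, and -2.69 without tumour replicate 2), with an adjusted p of 0.0992 without tumour replicates 1 and 4. Tumour replicate 2 was the highest tumour library in these 3 genes.

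Grem1, a secreted BMP antagonist of crypt-base fibroblasts and of colorectal tumours, was at 279, 183, 158 and 136 CPM in normal adult and 449, 409, 199.7 and 219 CPM in tumour libraries (log2FC 0.76 ± 0.33, adjusted p = 0.131). Postn, the matricellular protein periostin, was at 4576, 2651, 3456 and 3609.9 CPM in normal adult and 1553, 2745, 621 and 2525 CPM in tumour libraries (log2FC -0.94 ± 0.37, adjusted p = 0.0983). Both overlapped between the groups. Postn was called lower with DESeq2 (adjusted p = 0.0366) and without tumour replicate 2 (adjusted p = 0.0498). In the P14 libraries Lepr was at 235 ± 29.3, Islr at 132 ± 20.8, Fap at 218 ± 85.0 and Mcam at 284 ± 37.6 CPM. Against P14, a comparison that uses the same tumour libraries and in which 37.0% of genes were called (19.7% higher and 17.3% lower), the tumour changes of the 4 were -2.48 ± 0.37, -1.73 ± 0.30, -2.62 ± 0.50 and -0.57 ± 0.18 (adjusted p = 0.000375, 0.000901, 0.00162 and 0.0238).

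Among fibroblast subset markers, many of the adventitial list fell, while few of the interstitial and subepithelial lists were called, in both directions. Of 16 markers of adventitial fibroblasts and trophocytes, the deep fibroblasts that feed crypts, 8 fell, none rose and 8 were not called (median -1.21). There were 5 that fell without tumour replicate 1, 5 without tumour replicate 4 and 12 without tumour replicate 2, and 5 fell with the Xist term. Gfpt2, an enzyme of the hexosamine pathway, was at 629, 468, 347 and 471 CPM in normal adult and 88.7, 193, 99.5 and 71.9 CPM in tumour libraries (log2FC -2.08 ± 0.29, adjusted p = 0.000579). Ackr4, a scavenging chemokine receptor of trophocytes, fell from 167 ± 99.2 to 24.2 ± 11.4 CPM (log2FC -2.79 ± 0.52, adjusted p = 0.00302), and Dpp4, a dipeptidyl peptidase, from 44.4 ± 10.5 to 12.6 ± 3.35 CPM (log2FC -1.82 ± 0.34, adjusted p = 0.0033). Sema3c, a secreted semaphorin, fell by 1.12 on the log2 scale (adjusted p = 0.00193). None of these 4 overlapped between the groups. Of 14 interstitial fibroblast markers, Smoc2, a matricellular protein (log2FC 1.56 ± 0.21, adjusted p = 0.000404), and Fgfr2, an FGF receptor (log2FC 1.01 ± 0.18, adjusted p = 0.00284), rose, Penk, which encodes enkephalins (log2FC -2.65 ± 0.47, adjusted p = 0.00242), and Bmp4 fell, and 10 were not called. There were 4 that fell without tumour replicate 2. Of 15 subepithelial fibroblast markers, Cxcl14 and Frzb rose, Bmp3 and Edn3 fell, and 11 were not called. There were 4 that fell without tumour replicate 3.

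Of 15 genes described as markers of cancer-associated fibroblasts, 6 rose, 2 fell and 7 were not called (median 0.57). Spp1, the matricellular protein osteopontin, was at 0.128, 0.701, 0.505 and 0.511 CPM in normal adult and 6.79, 14.3, 8.80 and 4.22 CPM in tumour libraries (log2FC 4.21 ± 0.56, adjusted p = 0.000442). Inhba, the subunit of activin A, was at 6.18, 4.65, 3.79 and 4.57 CPM in normal adult and 13.3, 17.9, 29.7 and 46.3 CPM in tumour libraries (log2FC 2.48 ± 0.39, adjusted p = 0.00112). Thy1, a surface glycoprotein of fibroblasts, rose from 12.7 ± 2.501 to 39.8 ± 17.7 CPM (log2FC 1.64 ± 0.27, adjusted p = 0.00154). All 3 were higher in each tumour library than in any normal adult library. The 2 that fell were Fap and Wnt2, a WNT ligand, which was at 29.3, 18.2, 16.9 and 17.005 CPM in normal adult and 2.92, 6.73, 3.46 and 3.07 CPM in tumour libraries (log2FC -2.32 ± 0.34, adjusted p = 0.000809). Pdpn and Tnc, 2 further markers, were at 159 ± 22.9 and 959 ± 224 CPM in normal adult and at 169.8 ± 96.2 and 1303 ± 656 CPM in tumour libraries (log2FC 0.10 ± 0.31 and 0.44 ± 0.30, adjusted p = 0.862 and 0.332).

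Most interstitial collagens were not called, while members of the basement membrane and protease lists were called in both directions. Of 16 interstitial collagens, 2 rose, 2 fell and 12 were not called (median -0.32). None rose without normal adult replicate 1, 2 or 3, 1 rose without normal adult replicate 4 or tumour replicate 1, 3 or 4, and 4 fell without tumour replicate 2 but 1 without any normal adult library or tumour replicate 1 or 3. Col1a2 and Col3a1, chains of the main fibrillar collagens, were at 3765 ± 233 and 17632 ± 1991 CPM in normal adult and 2963 ± 733 and 11647 ± 4638 CPM in tumour libraries (log2FC -0.35 ± 0.20 and -0.60 ± 0.29, adjusted p = 0.244 and 0.171), and Col3a1 was called lower without tumour replicate 2 (adjusted p = 0.0495). Col14a1, a collagen that sits on fibril surfaces, was at 1831, 1136, 1436 and 1589 CPM in normal adult and 441, 592, 135 and 144 CPM in tumour libraries (log2FC -2.19 ± 0.44, adjusted p = 0.00465). Fbn1, the fibrillin of microfibrils, fell from 2306 ± 150.5 to 831 ± 279 CPM (log2FC -1.47 ± 0.22, adjusted p = 0.000857). Neither overlapped between the groups. Of 19 genes of collagen processing and crosslinking, the prolyl hydroxylase subunit P4ha3 rose (log2FC 1.28 ± 0.37, adjusted p = 0.0292, and 0.0511 to 0.0803 without any 1 normal adult library or tumour replicate 1 or 2), Pcolce2, an enhancer of procollagen cleavage, fell (log2FC -2.403 ± 0.55, adjusted p = 0.00979) and 17 were not called, and 6 fell without tumour replicate 2.

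Of 18 basement membrane genes, 6 rose, 3 fell and 9 were not called (median -0.21). Col18a1, whose C-terminal fragment is endostatin, was at 299.8, 218, 215 and 284 CPM in normal adult and 1074, 795, 1439 and 1185 CPM in tumour libraries (log2FC 2.14 ± 0.20, adjusted p = 4.67e-05). Agrn, the heparan sulfate proteoglycan agrin, rose from 65.6 ± 14.6 to 166 ± 25.4 CPM (log2FC 1.34 ± 0.18, adjusted p = 0.000404), and Lama5, a laminin chain, from 142 ± 27.9 to 337 ± 138 CPM (log2FC 1.25 ± 0.29, adjusted p = 0.0102). The type IV collagen chains went both ways. Col4a2, of the common network, was at 1217, 836, 820.3 and 1116 CPM in normal adult and 1794, 1555, 1939 and 1729 CPM in tumour libraries (log2FC 0.82 ± 0.20, adjusted p = 0.0126), and its partner Col4a1 rose by 0.78 ± 0.21 (adjusted p = 0.0214, but 0.0632 and 0.0713 without normal adult replicate 2 or 3). Col4a5 and Col4a6, chains of the network around smooth muscle, fell from 487 ± 64.7 and 174 ± 27.3 to 149.7 ± 82.8 and 56.1 ± 34.1 CPM (log2FC -1.70 ± 0.34 and -1.63 ± 0.34, adjusted p = 0.00432 and 0.00634). Per kb of exon, mean CPM of Col4a2 was 151 in normal adult and 265 in tumour, and that of Col4a5 was 72.5 in normal adult and 22.3 in tumour.

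Of 23 tested matrix proteases and inhibitors, 7 rose, 2 fell and 14 were not called, and 7 rose whichever single library was left out. Between 1 and 3 fell, with 1 in place of 2 without any 1 normal adult library or tumour replicate 1 or 3. The 5 matrix metalloproteinases that rose were Mmp3, Mmp7, Mmp9, Mmp10 and Mmp13. The promoters of Mmp3, Mmp10 and Mmp13, which lie in 1 gene cluster on chromosome 9, are shown. All 3 were picked because they hold an AP-1-like motif, TGANTCA, just before their start sites. N is any base, so this motif is looser than the AP-1 site TGA(C/G)TCA. RefSeq (GRCm38.p6) gave these 120 bases before each start site, on the plus strand, with the motif in capitals.
Mmp3, chr9:7445702-7445821: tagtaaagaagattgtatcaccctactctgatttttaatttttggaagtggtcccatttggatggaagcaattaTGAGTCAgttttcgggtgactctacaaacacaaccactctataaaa
Mmp10, chr9:7502222-7502341: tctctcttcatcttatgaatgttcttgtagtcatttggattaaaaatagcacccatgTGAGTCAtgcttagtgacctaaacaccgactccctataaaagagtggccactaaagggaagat
Mmp13, chr9:7272394-7272513: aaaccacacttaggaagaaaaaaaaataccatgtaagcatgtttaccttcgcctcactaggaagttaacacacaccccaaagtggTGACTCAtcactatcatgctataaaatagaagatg
The first base of the motif lay 46, 63 and 35 bases before the start site. The motif, read on both strands, was in 7.81% of 32851 RefSeq promoters of 300 bases, and in 1 of the 2 listed for Mmp7, while the Mmp9 promoter was not analysed here. The motif was searched after the values were seen, and a match describes letters, not a bound site.

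Mmp10 (stromelysin-2), which cleaves proteoglycans and activates other metalloproteinases, was at 10.3, 6.08, 7.21 and 12.5 CPM in normal adult and 33.5, 399, 170.4 and 727 CPM in tumour libraries (log2FC 5.20 ± 0.75, adjusted p = 0.000712, and 4.47 without tumour replicate 4). Mmp13, a collagenase, was at 4.33, 5.13, 3.281 and 4.09 CPM in normal adult and 23.98, 231, 61.2 and 356 CPM in tumour libraries (log2FC 5.32 ± 0.72, adjusted p = 0.000489, and 4.65 without tumour replicate 4). Mmp3 (stromelysin-1) was at 37.2, 26.3, 16.7 and 18.9 CPM in normal adult and 74.6, 494, 69.0 and 374 CPM in tumour libraries (log2FC 3.35 ± 0.60, adjusted p = 0.00236). Every tumour library exceeded every normal adult library in the 3 genes, and tumour replicate 4 was the highest for Mmp10 and Mmp13. Mmp7 (matrilysin), a protease of epithelium, rose from 0.207 ± 0.190 to 16.8 ± 20.7 CPM (log2FC 6.35 ± 1.08, adjusted p = 0.0018, and 5.01 without tumour replicate 3). Mmp9, a gelatinase that neutrophils also make, was at 0.352, 0.627, 0.433 and 0.613 CPM in normal adult and 3.33, 7.66, 12.6 and 10.5 CPM in tumour libraries (log2FC 4.06 ± 0.42, adjusted p = 0.000105). Neutrophil marker sums, in which Mmp9 itself is counted, were 71.0 to 982 CPM in tumour and 17.3 to 33.2 CPM in normal adult libraries. The stromal metalloproteinases Mmp2 and Mmp14 were not called, at 361 ± 67.4 and 220.4 ± 40.7 CPM in normal adult and 405 ± 139 and 242 ± 69.2 CPM in tumour (log2FC 0.17 ± 0.23 and 0.14 ± 0.19). Timp1, an inhibitor of these proteases, rose by 1.34 ± 0.26 (adjusted p = 0.00375), and Adamts5, an aggrecanase, fell by 1.13 on the log2 scale (adjusted p = 0.0079). Of the genes of hyaluronan, the large matrix sugar, the synthase Has3 rose (log2FC 2.66 ± 0.36, adjusted p = 0.000489) and the synthase Has1 fell from 716 ± 155 to 139 ± 133 CPM (log2FC -2.36 ± 0.47, adjusted p = 0.00466, and -3.285 without tumour replicate 2). Cemip, which degrades hyaluronan, was at 1.89, 1.55, 1.01 and 2.69 CPM in normal adult and 14.8, 80.8, 45.3 and 269.9 CPM in tumour libraries (log2FC 5.84 ± 0.80, adjusted p = 0.00052, and 4.71 without tumour replicate 4).

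Chemokines that recruit neutrophils rose. Of 6 tested CXC chemokines of this kind, Cxcl1, Cxcl2, Cxcl3, Cxcl5 and Ppbp rose and Pf4, the platelet factor, fell. The promoters of Cxcl1, Cxcl2 and Cxcl3, which lie in 1 cluster on chromosome 5, are shown because all 3 hold the NF-kB motif core GGGANTTNC. The 120 bases before each start site follow, from RefSeq (GRCm38.p6) and on the plus strand, with the motif in capitals.
Cxcl1, chr5:90891125-90891244: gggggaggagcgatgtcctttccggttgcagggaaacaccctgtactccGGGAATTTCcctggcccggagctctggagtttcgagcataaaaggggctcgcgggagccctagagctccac
Cxcl2, chr5:90903779-90903898: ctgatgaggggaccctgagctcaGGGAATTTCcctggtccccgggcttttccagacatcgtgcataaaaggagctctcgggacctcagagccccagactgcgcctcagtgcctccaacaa
Cxcl3, chr5:90785981-90786100: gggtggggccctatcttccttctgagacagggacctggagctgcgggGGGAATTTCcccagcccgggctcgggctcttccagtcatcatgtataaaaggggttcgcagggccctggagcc
The 9 letters were the same in the 3 promoters and began 71, 97 and 73 bases before the start site. The motif, read on both strands, was in 4.26% of the 32851 promoters, and in neither the Ppbp nor the Pf4 promoter, while the Cxcl5 promoter was not analysed here. This motif too was searched after the values were seen.

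Cxcl1 was at 354, 215, 188 and 241 CPM in normal adult and 296, 1303, 686 and 752 CPM in tumour libraries (log2FC 1.61 ± 0.36, adjusted p = 0.00924), and tumour replicate 1 lay within the normal adult range. Cxcl2 was at 11.2, 13.6, 10.7 and 11.7 CPM in normal adult and 16.9, 104, 132 and 50.4 CPM in tumour libraries (log2FC 2.68 ± 0.56, adjusted p = 0.00593), with no overlap. Cxcl5, another ligand of the receptor CXCR2, was at 1.51, 4.65, 5.44 and 1.87 CPM in normal adult and 57.0, 223, 108 and 92.3 CPM in tumour libraries (log2FC 5.16 ± 0.56, adjusted p = 0.000133). Cxcl3 rose by 3.64 ± 0.79 (adjusted p = 0.00727). Ppbp was at 0.0320, 0.111, 0.108 and 0.102 CPM in normal adult and 1.66, 2.79, 65.7 and 5.29 CPM in tumour libraries (log2FC 7.69 ± 1.35, adjusted p = 0.00219, and 5.14 without tumour replicate 3), and its adjusted p was 0.093 with limma voom. Among 14 tested other inflammatory chemokines and colony-stimulating factors, 6 rose and 8 were not called. Ccl20, which attracts CCR6-bearing lymphocytes, rose from 2.15 ± 0.945 to 44.7 ± 20.2 CPM (log2FC 4.38 ± 0.56, adjusted p = 0.000356), Cxcl9, an interferon-induced ligand of CXCR3, from 0.553 ± 0.299 to 9.41 ± 5.86 CPM (log2FC 4.09 ± 0.70, adjusted p = 0.00193), and Csf3, the granulocyte growth factor, from 0.473 ± 0.181 to 9.13 ± 6.87 CPM (log2FC 4.26 ± 0.57, adjusted p = 0.000442, and 3.60 without tumour replicate 2). Cxcl12, the homeostatic chemokine of stroma, was not called, at 163 ± 47.2 and 156 ± 74.1 CPM (log2FC -0.06 ± 0.33, adjusted p = 0.924).

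Cytokines of the IL-6 family rose in part. Of 12 ligands and receptors, the ligands Il11, Lif, Clcf1, Il6 and Ctf1 rose and 7 were not called, among them the shared receptor chain Il6st (log2FC 0.18 ± 0.20, adjusted p = 0.576). There were 3 that rose without tumour replicates 1 and 4. Ctf1 had an adjusted p of 0.0448, and of 0.0895 to 0.119 without normal adult replicate 1, 3 or 4 or tumour replicate 1 or 4. Il11, a cytokine of injured fibroblasts, was at 2.403, 1.47, 1.33 and 2.08 CPM in normal adult and 4.86, 48.4, 27.0 and 52.3 CPM in tumour libraries (log2FC 4.18 ± 0.61, adjusted p = 0.000725). Lif was at 10.1, 7.52, 6.31 and 7.74 CPM in normal adult and 23.4, 26.7, 55.4 and 27.1 CPM in tumour libraries (log2FC 2.07 ± 0.38, adjusted p = 0.00283). Il6 was at 197, 138, 145 and 133 CPM in normal adult and 185, 625, 335 and 308 CPM in tumour libraries (log2FC 1.24 ± 0.30, adjusted p = 0.0126). The groups did not overlap in Il11 and Lif and overlapped in Il6. Of 12 tested genes of the IL-1 family, 6 rose, Il18 fell (log2FC -1.85 ± 0.46, adjusted p = 0.0154) and 5 were not called. Il1f9 (IL-36 gamma), an epithelial alarm cytokine, rose from 0.0798 ± 0.0594 to 16.02 ± 5.31 CPM (log2FC 7.59 ± 0.73, adjusted p = 5.83e-05), Il1a from 1.51 ± 0.157 to 12.2 ± 5.23 CPM (log2FC 3.01 ± 0.41, adjusted p = 0.00047), and the signalling receptor Il1r1 from 54.0 ± 6.43 to 126 ± 20.05 CPM (log2FC 1.22 ± 0.19, adjusted p = 0.00127). The IL-33 receptor Il1rl1 was at 8.23, 14.3, 9.30 and 15.8 CPM in normal adult and 16.4, 140.4, 107 and 338 CPM in tumour libraries (log2FC 3.66 ± 0.72, adjusted p = 0.00437, and 2.88 without tumour replicate 4).

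Of 14 NF-kB response genes, 7 rose and 7 were not called, and 4 rose without normal adult replicate 3. The inhibitors Nfkbia and Tnfaip3, which NF-kB itself induces, were at 299, 328, 319 and 318 and 144, 204, 196 and 171 CPM in normal adult and at 502, 661, 701 and 757 and 414, 606, 564 and 605 CPM in tumour libraries. They rose by 1.05 ± 0.18 (adjusted p = 0.00211) and 1.62 ± 0.32 (adjusted p = 0.00425), and Nfkbiz, a nuclear co-factor, by 1.04 ± 0.13 (adjusted p = 0.000368). None of the 3 overlapped between the groups. Of 15 acute phase and antimicrobial genes, 10 rose and 5 were not called (6 rose with limma voom). Saa3, a serum amyloid A of inflamed tissue, was at 0.833, 1.11, 1.87 and 1.57 CPM in normal adult and 171, 656, 94.0 and 459 CPM in tumour libraries (log2FC 8.001 ± 0.64, adjusted p = 1.88e-05). Hp, which encodes the haemoglobin-binding protein haptoglobin, was at 1.602, 1.25, 0.361 and 0.647 CPM in normal adult and 205, 603, 75.4 and 223 CPM in tumour libraries (log2FC 8.15 ± 0.74, adjusted p = 3.94e-05, and 7.44 without tumour replicate 2). Ltf (lactoferrin), an iron-binding protein of neutrophils and mucosal glands, was at 0.0961, 0.516, 0.288 and 0.307 CPM in normal adult and 30.2, 27.0, 1349.7 and 759.7 CPM in tumour libraries (log2FC 10.81 ± 1.49, adjusted p = 0.000529, and 9.82 without tumour replicate 3). With limma voom the adjusted p of Ltf was 0.0943. S100a9, a calprotectin subunit abundant in neutrophils, was at 0.288, 0.774, 0 and 0.273 CPM in normal adult and 44.9, 531, 15.7 and 18.3 CPM in tumour libraries (log2FC 8.83 ± 1.39, adjusted p = 0.00117). Tumour replicate 2 had the highest neutrophil sum, 982 CPM, in which S100a9 itself is counted. Without that library S100a9 rose by 6.31, and without normal adult replicate 2 by 9.61. Its adjusted p was 0.0872 with limma voom. Slpi, a protease inhibitor of mucosa, rose by 3.84 ± 0.35 (adjusted p = 4.14e-05).

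Most genes of MHC class I presentation rose, and most of class II were not called. Of 12 class I genes, 8 rose and 4 were not called (median 0.91), and 7 or 8 rose whichever library was left out. Nlrc5, the transactivator of class I genes, was at 4.23, 4.87, 8.44 and 10.4 CPM in normal adult and 64.4, 53.9, 66.7 and 41.9 CPM in tumour libraries (log2FC 3.02 ± 0.46, adjusted p = 0.000928). B2m, the light chain of class I molecules, was at 179, 187, 197 and 186 CPM in normal adult and 359, 490.4, 362 and 230.2 CPM in tumour libraries (log2FC 0.95 ± 0.18, adjusted p = 0.00417), and Psmb8, an immunoproteasome subunit, rose by 1.23 ± 0.25 (adjusted p = 0.00526). All 3 were separated between the groups. Of 7 class II genes, H2-Eb1 fell (log2FC -1.46 ± 0.42, adjusted p = 0.0296, and 0.0548 to 0.0684 without any 1 normal adult library, tumour replicate 3 or tumour replicate 4) and 6 were not called. Of 26 interferon-stimulated genes, 5 rose, 3 fell and 18 were not called (median 0.22), but 0 to 3 rose and 1 to 3 fell with any 1 library left out, with 0 higher without normal adult replicate 1, 2 or 3 or with the Xist term. Of 19 complement genes, 4 rose and 6 fell. There were 2 that rose with any 1 normal adult library left out, as without tumour replicate 1 or 2, and 3 fell without normal adult replicate 1 or 2 or tumour replicate 4. Cfi, the protease complement factor I, rose from 0.185 ± 0.0980 to 5.85 ± 2.71 CPM (log2FC 4.96 ± 0.57, adjusted p = 0.000183), and C1qb, a C1q chain that macrophages make, fell from 10.3 ± 1.22 to 1.24 ± 0.917 CPM (log2FC -3.04 ± 0.64, adjusted p = 0.00636). C3, the central component, was not called (log2FC 1.09 ± 0.51, adjusted p = 0.16). Of 13 serpins, 8 rose, 1 fell and 4 were not called. Serpina3n, an inhibitor of cathepsin G and related proteases, was at 155, 71.2, 57.6 and 91.0 CPM in normal adult and 1001, 1151, 192 and 232 CPM in tumour libraries (log2FC 2.78 ± 0.55, adjusted p = 0.00425), with reads that its near-identical copies may share.

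Several secreted WNT inhibitors and feedback genes rose. Of 18 tested WNT inhibitors and feedback targets, 10 rose, none fell and 8 were not called (median 1.47), and 9 to 12 rose with 1 library left out. Wif1, a secreted protein that binds WNT ligands, was at 1.89, 1.73, 2.99 and 3.03 CPM in normal adult and 54.1, 20.4, 81.9 and 14.01 CPM in tumour libraries (log2FC 4.14 ± 0.51, adjusted p = 0.00029). Notum, an enzyme that strips the lipid from WNT ligands, was at 0.128, 0.479, 0.397 and 0.307 CPM in normal adult and 11.5, 5.73, 30.3 and 5.504 CPM in tumour libraries (log2FC 5.33 ± 0.64, adjusted p = 0.000239, and 4.53 without tumour replicate 3). Dkk2, a ligand of the co-receptors LRP5 and LRP6, was at 6.06, 9.33, 11.03 and 11.7 CPM in normal adult and 69.8, 22.5, 54.0 and 47.1 CPM in tumour libraries (log2FC 2.34 ± 0.35, adjusted p = 0.000914). Each tumour library exceeded each normal adult library in the 3 genes. Frzb, a secreted Frizzled-related protein, rose by 2.36 ± 0.32 (adjusted p = 0.000444), and the feedback inhibitor Apcdd1 by 1.98 ± 0.30 (adjusted p = 0.000894). Axin2, a direct target of the pathway, was at 9.19, 13.9, 12.3 and 11.8 CPM in normal adult and 49.4, 12.96, 78.1 and 17.4 CPM in tumour libraries (log2FC 1.75 ± 0.45, adjusted p = 0.0176), with an overlap at tumour replicate 2 and an adjusted p of 0.0541 without normal adult replicate 1. Its adjusted p was 0.0607 with limma voom and 0.0608 with the Xist term.

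Of 13 tested WNT ligands and R-spondins, 4 rose, 3 fell and 6 were not called. Wnt10a was at 0.0961, 0.369, 0.901 and 0.716 CPM in normal adult and 19.3, 18.5, 19.7 and 18.7 CPM in tumour libraries (log2FC 5.19 ± 0.47, adjusted p = 3.71e-05), and Wnt16 rose from 1.83 ± 0.839 to 13.5 ± 5.87 CPM (log2FC 2.88 ± 0.49, adjusted p = 0.00182). Besides Wnt2, Wnt2b fell from 114 ± 36.1 to 41.2 ± 26.9 CPM (log2FC -1.46 ± 0.38, adjusted p = 0.0186, adjusted p = 0.0565 without normal adult replicate 1), and Wnt11 from 13.04 ± 1.18 to 7.47 ± 1.53 CPM (log2FC -0.80 ± 0.17, adjusted p = 0.00636). The R-spondin Rspo3, which boosts WNT signals at crypt bases, was not called, at 7.30 ± 0.902 and 12.6 ± 7.59 CPM (log2FC 0.79 ± 0.33, adjusted p = 0.118), and was called higher without tumour replicate 3 (adjusted p = 0.0318).

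Some receptors and targets of Hedgehog signalling fell, and most genes of the pathway were not called. Of 15 tested members, 6 fell, none rose and 9 were not called (median -0.66), and 4 to 7 fell with 1 library left out. Hhip, a surface protein that traps Hedgehog ligands and is itself a target, was at 262, 126, 135 and 217 CPM in normal adult and 20.5, 30.1, 31.5 and 13.9 CPM in tumour libraries (7.70-fold lower, log2FC -2.94 ± 0.36, adjusted p = 0.000274). Gli1, the target transcription factor, was at 45.4, 23.8, 31.7 and 44.2 CPM in normal adult and 11.8, 10.2, 14.9 and 12.3 CPM in tumour libraries (log2FC -1.56 ± 0.25, adjusted p = 0.0014). Ptch1, the receptor and also a target, was at 265, 145, 158 and 239 CPM in normal adult and 100.2, 65.9, 98.6 and 90.5 CPM in tumour libraries (log2FC -1.18 ± 0.25, adjusted p = 0.00675). In the 3 genes every tumour library lay below every normal adult library. Foxf1, a forkhead factor of gut mesenchyme, fell from 117 ± 21.1 to 74.2 ± 13.2 CPM (log2FC -0.66 ± 0.19, adjusted p = 0.0304, and 0.0587 to 0.0884 without normal adult replicate 1 or 4 or tumour replicate 1 or 4). The signal transducer Smo and the factors Gli2 and Gli3 were not called, with log2 fold changes of 0.12 ± 0.20, -0.31 ± 0.29 and -0.05 ± 0.18, as was Ihh, the colonic ligand of the epithelium (log2FC -1.03 ± 0.67, adjusted p = 0.316). In P14 libraries Gli1 was at 46.5 ± 14.9 CPM.

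Of 16 BMP ligands and targets, 4 fell, none rose and 12 were not called (median -0.24). Bmp4, a ligand of interstitial and subepithelial fibroblasts, was at 164, 94.2, 109 and 131.4 CPM in normal adult and 55.1, 74.2, 46.1 and 73.2 CPM in tumour libraries (log2FC -1.01 ± 0.20, adjusted p = 0.00479). Bmp3 fell from 70.1 ± 11.7 to 26.7 ± 14.4 CPM (log2FC -1.40 ± 0.31, adjusted p = 0.00875). The inhibitors of differentiation Id1 and Id3, targets of BMP signals, were not called (log2FC 0.24 ± 0.20 and -0.15 ± 0.19). Of 12 BMP antagonists, Fst (follistatin), which also binds activins, rose from 12.9 ± 2.34 to 59.8 ± 42.8 CPM (log2FC 2.21 ± 0.39, adjusted p = 0.0023, and 1.58 without tumour replicate 3), Chrdl2 rose and 10 were not called. Among 17 TGF-beta pathway ligands and targets 3 rose and 14 were not called: Ltbp2, a microfibril protein of the latent TGF-beta binding family, at 4.07, 4.31, 4.33 and 5.08 CPM in normal adult and 41.5, 51.7, 90.4 and 51.8 CPM in tumour libraries (log2FC 3.72 ± 0.24, adjusted p = 1.03e-05), and the activin and inhibin subunits Inhba and Inhbb. The ligands Tgfb1, Tgfb2 and Tgfb3 were not called (log2FC 0.71 ± 0.27, 0.31 ± 0.18 and -0.53 ± 0.26). Of 14 genes of the IGF axis, 6 rose, 1 fell and 7 were not called, and 2 to 6 rose with 1 library left out, with 3 without normal adult replicate 2 or tumour replicate 4 and 2 without normal adult replicate 3, and 3 with the Xist term. The binding proteins Igfbp5 and Igfbp7, at 128 ± 35.7 and 262 ± 47.6 CPM in normal adult, rose by 2.20 ± 0.30 (adjusted p = 0.000528) and 1.06 ± 0.15 (adjusted p = 0.000712), and Igf1 itself was not called (log2FC 0.37 ± 0.24, adjusted p = 0.322).

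**Figure D4:**
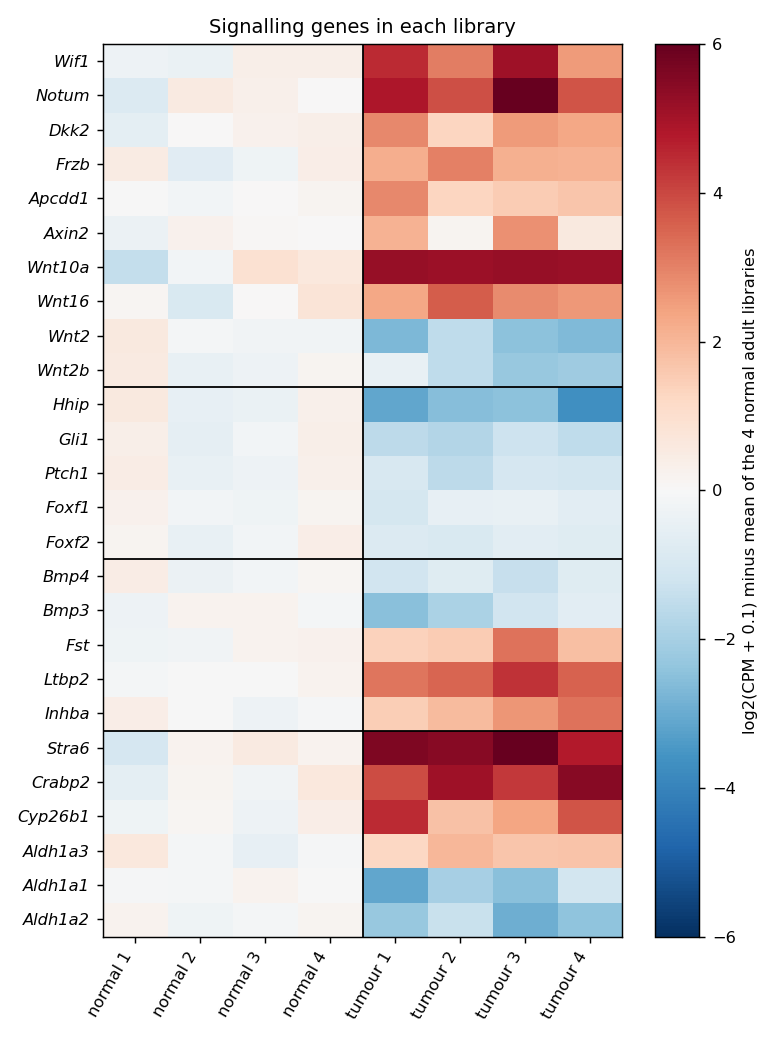
Log2(CPM + 0.1) minus the mean of the 4 normal adult libraries for 26 WNT, Hedgehog, BMP, TGF-beta and retinoid genes (rows) in 8 libraries (columns), red for higher and blue for lower. Wif1, Notum, Wnt10a, Stra6 and Crabp2 are red and Hhip, Gli1, Wnt2, Aldh1a1 and Aldh1a2 blue in all 4 tumour libraries.

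Genes of vitamin A handling changed in both directions. Of 16 tested retinoid genes, 8 rose, 4 fell and 4 were not called. Stra6, a membrane receptor that takes up retinol, was at 0.352, 0.959, 1.23 and 0.954 CPM in normal adult and 43.6, 39.2, 82.3 and 24.1 CPM in tumour libraries (log2FC 5.76 ± 0.49, adjusted p = 2.78e-05). Crabp2, which carries retinoic acid to the nucleus, was at 0.288, 0.553, 0.397 and 0.818 CPM in normal adult and 8.64, 19.6, 10.9 and 25.7 CPM in tumour libraries (log2FC 4.97 ± 0.42, adjusted p = 2.85e-05). Cyp26b1, which degrades retinoic acid, rose from 3.44 ± 0.834 to 38.3 ± 29.9 CPM (log2FC 3.47 ± 0.50, adjusted p = 0.000706, and 2.88 without tumour replicate 1). The 3 enzymes that make retinoic acid differed: Aldh1a3 rose from 52.3 ± 18.0 to 161 ± 33.0 CPM (log2FC 1.62 ± 0.25, adjusted p = 0.00112), Aldh1a1 fell from 237 ± 26.3 to 59.0 ± 35.4 CPM (log2FC -2.01 ± 0.34, adjusted p = 0.00168) and Aldh1a2 from 25.4 ± 3.88 to 5.75 ± 2.92 CPM (log2FC -2.13 ± 0.30, adjusted p = 0.000532). None of the 6 overlapped between the groups.

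Of 21 tested genes of xenobiotic metabolism, 10 fell, 2 rose and 9 were not called (median -0.89), with 8 to 11 lower when 1 library was left out. Adh1, an alcohol dehydrogenase that also oxidizes retinol, fell from 271 ± 74.0 to 76.4 ± 36.0 CPM (log2FC -1.83 ± 0.38, adjusted p = 0.0057), and Gstm1, a glutathione transferase, from 70.7 ± 9.04 to 30.4 ± 3.51 CPM (log2FC -1.22 ± 0.13, adjusted p = 0.000125). Several members, such as the carboxylesterase Ces1e (log2FC -3.36 ± 0.46, adjusted p = 0.000499), belong to families with near-identical copies. Absorptive colonocyte sums were lower in the same libraries, and their part in the result was not tested. Of 14 genes of glutathione and the antioxidant factor NRF2, a separate list, 3 rose, 4 fell and 7 were not called. The transferase Gsta4, a member of that list and not of the xenobiotic list, rose from 23.8 ± 6.26 to 186 ± 74.8 CPM (log2FC 2.96 ± 0.34, adjusted p = 0.000183). Among lipid genes, Fabp5, a fatty acid carrier of squamous epithelium and other cells, rose from 33.5 ± 15.005 to 424 ± 236 CPM (log2FC 3.66 ± 0.48, adjusted p = 0.000378), and Pparg, a transcription factor of fat cells and other cells, fell from 50.5 ± 9.66 to 20.9 ± 3.88 CPM (log2FC -1.27 ± 0.22, adjusted p = 0.00223). Of 4 tested adipocyte markers, 1 fell and 3 were not called, and the cell source of the Pparg change was not tested.

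Of 24 genes of hypoxia and glycolysis, 8 rose, 1 fell and 15 were not called (median 0.44). Egln3, an oxygen sensor induced by hypoxia, rose from 11.5 ± 2.52 to 31.6 ± 11.2 CPM (log2FC 1.45 ± 0.25, adjusted p = 0.00193), and Ddit4, a stress-induced inhibitor of mTORC1, from 15.7 ± 2.08 to 46.4 ± 13.7 CPM (log2FC 1.56 ± 0.23, adjusted p = 0.000825). Eno1 and Pkm, enzymes of glycolysis, rose by 1.23 ± 0.21 (adjusted p = 0.00219) and 0.93 ± 0.19 (adjusted p = 0.0048), whereas the hypoxia targets Vegfa and Car9 were not called (log2FC -0.19 ± 0.21 and -0.09 ± 0.33). Of 27 proliferation genes, 12 rose and 15 were not called (median 0.84). There were 7 that rose with the Xist term and 5 without tumour replicates 1 and 4. The replication licensing gene Mcm4 was at 24.3, 23.7, 19.5 and 20.9 CPM in normal adult and 47.7, 47.1, 39.9 and 48.3 CPM in tumour libraries (log2FC 1.05 ± 0.13, adjusted p = 0.000294), and Rrm2, a subunit of ribonucleotide reductase, rose from 7.66 ± 3.12 to 23.6 ± 8.79 CPM (log2FC 1.62 ± 0.31, adjusted p = 0.00355). Of 19 immediate early genes, which also respond to tissue digestion, 5 rose and 14 were not called, and 3 rose without normal adult replicate 2, 3 or 4 or tumour replicate 3 or 4. Fos was at 1207 ± 196 and 1169.7 ± 265 CPM (log2FC -0.05 ± 0.18, adjusted p = 0.89).

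**Figure D5:**
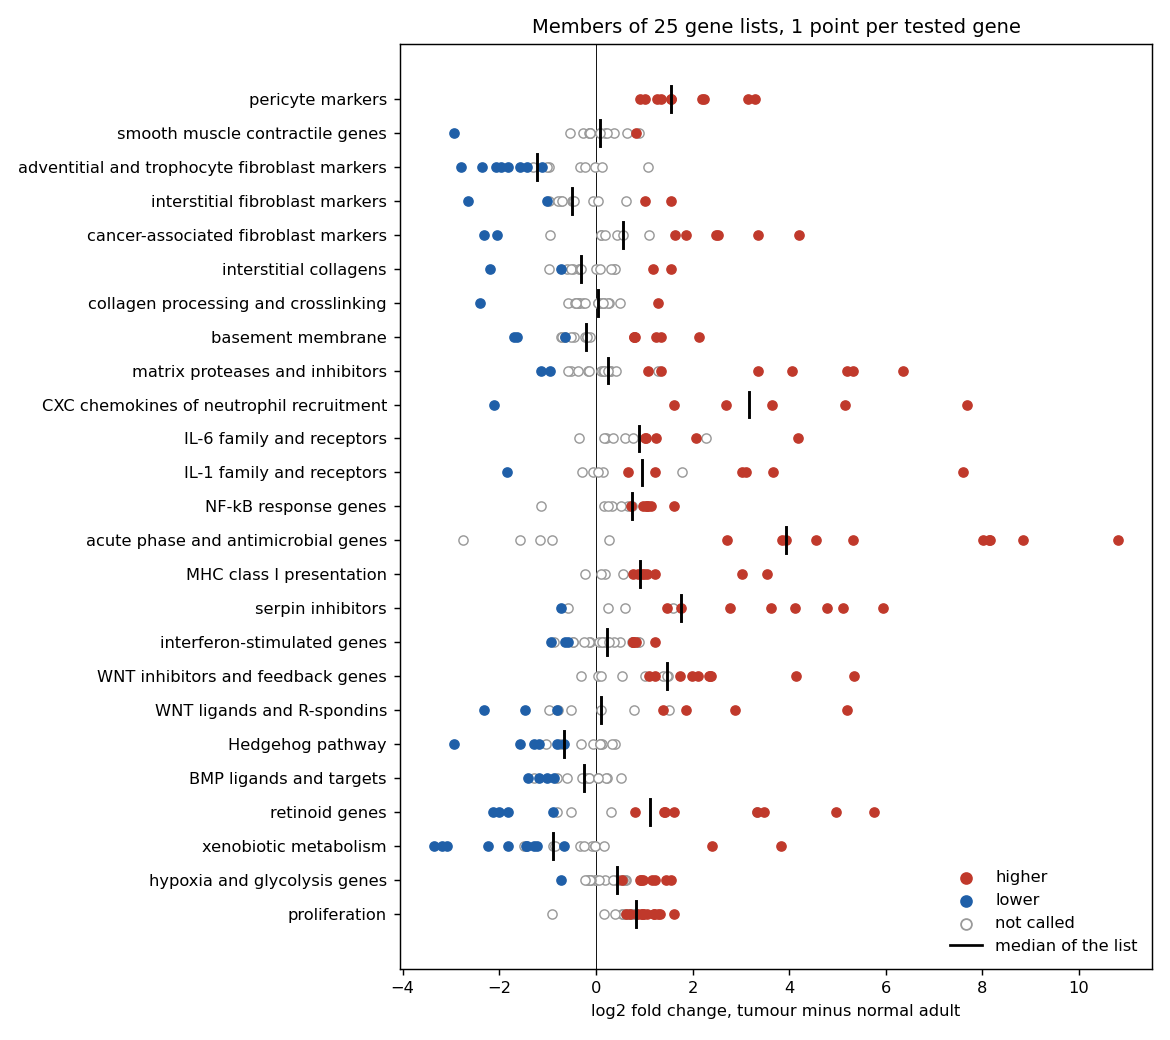
Log2 fold change of tumour over normal adult for each tested member of 25 gene lists, filled red where higher, filled blue where lower and open where not called, with the median of each list as a bar. All 10 pericyte markers are red to the right of 0, 6 Hedgehog genes are blue, and the interstitial collagens scatter around 0.

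Other genes with large changes belonged to no single group. Calcb, the neuropeptide beta-CGRP of sensory and enteric neurons, was at 0.352, 0.479, 0.721 and 0.818 CPM in normal adult and 39.9, 125, 390.4 and 182 CPM in tumour libraries (log2FC 8.28 ± 0.68, adjusted p = 2.04e-05, and 7.60 without tumour replicate 3). Of the other 10 tested enteric neuron markers, Tubb3 rose, Vip fell (log2FC -4.41 ± 1.06, adjusted p = 0.0129, and -5.13 without tumour replicate 3) and 8 were not called. The call of Vip was lost with limma voom (adjusted p = 0.219) and without tumour replicates 1 and 4 (adjusted p = 0.078). Caln1, a calcium-binding protein, was at 0.128, 0.111, 0.108 and 0.0682 CPM in normal adult and 5.40, 20.4, 11.5 and 29.0 CPM in tumour libraries (log2FC 7.25 ± 0.59, adjusted p = 2.04e-05). Sox2, a factor of glia and of squamous epithelium, was at 0.384, 0.332, 1.05 and 0.954 CPM in normal adult and 12.1, 21.7, 15.9 and 19.7 CPM in tumour libraries (log2FC 4.67 ± 0.43, adjusted p = 4.59e-05), while of the other 11 glia markers 1 rose, 2 fell and 8 were not called. Arg1, the arginine-degrading enzyme, rose from 1.16 ± 0.325 to 53.8 ± 49.0 CPM (log2FC 5.54 ± 0.73, adjusted p = 0.000387, and 4.92 without tumour replicate 3). Anxa1, an anti-inflammatory annexin of many cell types, was at 715, 651, 557 and 528 CPM in normal adult and 853, 1421, 2372 and 1962 CPM in tumour libraries (log2FC 1.43 ± 0.26, adjusted p = 0.00306). In all 5 genes the groups did not overlap.

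Of the largest falls, Slc30a10, a manganese exporter, was at 8.17, 21.1, 19.2 and 10.5 CPM in normal adult and 0.135, 0, 0.314 and 0.572 CPM in tumour libraries (log2FC -6.01 ± 0.83, adjusted p = 0.00053, and -6.66 without tumour replicate 4). Insl5, a hormone of colonic enteroendocrine cells, was at 7.02, 16.7, 20.4 and 10.7 CPM in normal adult and 0.270, 0.931, 1.26 and 0 CPM in tumour libraries (log2FC -4.40 ± 0.73, adjusted p = 0.00154). Btnl1, a butyrophilin-like protein of gut epithelium, was at 14.8, 25.997, 33.5 and 17.005 CPM in normal adult and 0.630, 0.322, 1.12 and 2.07 CPM in tumour libraries (log2FC -4.52 ± 0.72, adjusted p = 0.00126). Cd28, a costimulatory receptor of T cells, was at 15.4, 14.01, 7.07 and 9.10 CPM in normal adult and 0.540, 0.644, 0.314 and 0 CPM in tumour libraries (log2FC -4.81 ± 0.58, adjusted p = 0.000244). Of 5 tested T and NK cell markers, a list without Cd28, 1 rose, 1 fell and 3 were not called. Their sums were 4.61 to 6.67 CPM in normal adult and 3.90 to 6.50 CPM in tumour libraries, and the cell source of Cd28 was not tested. Tek, the angiopoietin receptor of endothelium, was at 163, 123, 119.6 and 147 CPM in normal adult and 16.6, 30.1, 7.72 and 10.9 CPM in tumour libraries (log2FC -3.07 ± 0.38, adjusted p = 0.000274), and Pecam1, which encodes CD31, at 22.7, 29.4, 32.6 and 43.3 CPM in normal adult and 5.40, 8.45, 4.44 and 1.93 CPM in tumour libraries (log2FC -2.64 ± 0.69, adjusted p = 0.0184). In these 6 genes every tumour library was below every normal adult library. The protein of the last one was used in the sort to remove endothelial cells from both groups.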

How the data were processed

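A single table of gene counts, 12 libraries wide, was what the authors deposited. The submitters' processing notes name STAR 2.4.2a, GRCm38 and edgeR 3.28.0. How reads were counted (program, annotation, strand, multiple matches) is not given in the sources used here, and values of near-identical or overlapping genes are uncertain. Of 19049 gene IDs, 19012 matched GENCODE M21, which gave names, positions and exon lengths. edgeR 4.0.16 in R 4.3.3 (TMM factors, filterByExpr with a minimum count of 10 and total of 15, quasi-likelihood test, Benjamini-Hochberg adjustment over all tested genes) was fitted to all 12 libraries with no covariate, and tumour minus normal adult was the contrast. A gene was called at an adjusted p under 0.05. A gene that was not called is not shown to be unchanged. Each library is labelled as its own sample, and p-values measure the spread between these libraries. Genes were named for being marker genes of the study, for the largest changes with no overlap, or as list members, and others were chosen after their values were seen. Called list members were mostly picked by smallest p among those with no overlap, beside the members with the highest CPM. In genes picked that way, the lack of overlap follows from the pick and is no further evidence. The lists and members were chosen with earlier results of these data known. Alternatives were other scalings, filters and thresholds, DESeq2 1.42.0, limma 3.58.1 (voom), the 8 libraries alone, a replicate block, an Xist term and leaving out libraries.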

Additional observations from a re-analysis of the deposited data

Results flagged for a closer look

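In groups of 4 libraries, a value was picked out where its gap to the nearest other value, as a share of the group's range, passed Dixon's critical value. Chance does this in about 1 in 20 groups, and 20 of 356 groups of printed genes were picked out. Tumour replicate 4 had 9.14% of genes at 0 and a summed squamous level of 14477 CPM. Tumour replicate 1 had 5.23% mitochondrial counts and Apcdd1 at 142 CPM.

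Tumour replicate 2 stood apart in the sums of neutrophil (982 CPM), macrophage and pan-leukocyte (119.96 CPM), B and plasma cell (1213 CPM) and lymphatic endothelial (345 CPM) markers. It also stood apart in S100a9 (531 CPM, counted in the neutrophil sum), Timp1 (96.1 CPM), Has1 (338 CPM), Mmp14 (346 CPM), Frzb (33.4 CPM) and Wnt2 (6.73 CPM). Tumour replicate 3 was high in Ppbp (65.7 CPM), Tmprss11g (104 CPM), Fst (124 CPM) and Lif (55.4 CPM) and low in Mcm4 (39.9 CPM). Tumour replicate 4 was high in Col4a6 (107 CPM).

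Of the normal adult libraries, replicate 1 was low in Ppbp (0.0320 CPM) and high in Rspo3 (8.65 CPM), Wnt2 (29.3 CPM) and the adipocyte sum (108 CPM). Ppbp was at 0.102 to 0.111 CPM in the other normal adult libraries, so all its normal adult values rest on very few reads. Replicate 2 was high in Cfi (0.332 CPM). Replicate 4 was low in Sema3c (492 CPM) and high in Esam (30.9 CPM), Lama5 (183 CPM) and the blood endothelial sum (393 CPM).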

How the results depend on the processing

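Single genes were followed through 19 alternative runs, which did not include the threshold of 0.01 or the test against a 1.5-fold change. No called gene printed here changed direction in any of these runs, and 100 of the 148 called genes stayed called in all of them. Of the 30 not called, 3 (Postn, Col3a1 and Rspo3) were called in at least 1 alternative. The replicate block ended the call of 44 genes. In alphabetical order, these began with Abcc9, Adamts5, Angpt2, Anxa1, Axin2, Bmp4, C1qb, Cald1, Clcf1, Col4a1, Col4a2, Ctf1, Cxcl1, Cyp26b1 and Dkk2. Next came Edn3, Eno1, Esam, Fap, Fgfr2, Foxf1, Gli1, Heyl, Igfbp7, Il18, Il1r1, Il6, Inhbb, Kcnj8 and Krt5. The rest were Lama5, Mcm4, P4ha3, Pcolce2, Pdgfrb, Pecam1, Pkm, Psmb8, Ptch1, Sema3c, Timp1, Vip, Wnt11 and Wnt2b. Leaving out tumour replicates 1 and 4 together ended 16 (C1qb, Clcf1, Col4a1, Col4a2, Ctf1, Edn3, Esam, Fap, Foxf1, H2-Eb1, Il18, Inhbb, Pcolce2, Pdgfrb, Pecam1 and Vip), limma voom 6 (Axin2, Ctf1, Ltf, Ppbp, S100a9 and Vip), the Xist term 6 (Axin2, Ctf1, Esam, Foxf1, P4ha3 and Wnt2b) and a fit of the 8 libraries alone 5 (Ctf1, Edn3, Esam, Foxf1 and P4ha3). The replicate block left 486 genes higher and 332 lower. The numbers in the sample titles are not stated to mark a shared animal or batch, and the deviations of same-numbered normal adult and tumour libraries correlated at 0.319 and 0.0187, so the block is given only here. The Xist term left 1202 higher and 955 lower, a threshold of 0.01 left 959 and 591, and a test against a 1.5-fold change (glmTreat) left 813 and 556. Leaving out each library in turn gave 1328 to 2280 higher and 975 to 1888 lower, the lowest of both without normal adult replicate 3. Leaving out tumour replicates 1 and 4 together, an alternative chosen after seeing the data, left 980 lower. Some of these runs had fewer libraries or a stricter threshold. The replicate block adds terms for the title numbers, which leaves less of the data to estimate the spread. The counts without tumour replicate 2, 2280 higher and 1888 lower, were above those of the main fit. What caused these differences was not tested. Of the genes not called, the log2 fold change of Pdpn reversed to -0.053 with limma voom, Car9 to 0.034 and Smo to -0.11 with the replicate block, Fos to 0.019 with the Xist term, and Id1 to -0.096 without tumour replicates 1 and 4. With each library left out in turn, Car9 ranged over -0.41 to 0.17, Cxcl12 over -0.30 to 0.18, Fos over -0.17 to 0.074, Gli3 over -0.17 to 0.052, Id3 over -0.25 to 0.011, Mmp14 over -0.072 to 0.25, Mmp2 over -0.053 to 0.34, Myh11 over -0.39 to 0.041, Pdpn over -0.35 to 0.32 and Smo over -0.013 to 0.25. Counts of tumour replicate 4, the shallowest library, limit what can be read of low genes. The very low normal adult values of Ppbp, Caln1 and Il1f9 likewise make the size of their rises uncertain.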
